A study of Mus musculus with 2 samples.

Results

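The genes described here are 10 surface and lineage markers of fibro-adipogenic progenitors (FAPs), the mesenchymal cells that lie between the fibers of skeletal muscle. They were taken by symbol from the 26082 genes listed in both deposited tables, and they comprise Pdgfra, Pdgfrb, Ly6a, Ly6e, Ly6c1, Cd34, Dpp4, Pi16, Thy1 and Osr1. All 10 were listed in both libraries, and 8 reached a mean FPKM (fragments per kilobase of exon, scaled to a fixed library total) of at least 1, the level from which a gene is called expressed below. The other 2, Dpp4 and Pi16, were close to 0 in both libraries.

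The cells were primary wild-type FAPs sorted from the hind limb muscles of C57BL/6 mice, transfected with a TGFBR3 overexpression plasmid or with its vector, and then kept in adipogenic induction medium. In both groups that medium held 20% serum with 10 µg/ml insulin, 0.25 µM dexamethasone and 0.5 mM IBMX. Each group had 1 library, named here by its label, since the targeted gene did not tell them apart: the TGFBR3-labelled library held 62321027 counts and the vector-labelled library 83779203. No difference therefore has a replicate check, no test was possible, and every interval given is a 95% interval for counting error only, without biological or handling variation.

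FAPs are recognized by the PDGF receptor alpha chain together with Sca-1, the protein of Ly6a, and by the absence of endothelial and blood cell antigens. They give rise to adipocytes and fibroblasts in damaged muscle and feed muscle stem cells with growth factors. Within this population, cells expressing Dpp4 and Pi16 are held to be adventitial, upstream progenitors, and the small GPI-anchored Ly6 proteins are also known as products of interferon-stimulated genes. The study asked how TGFBR3, the type III TGF-beta receptor, acts on the fate of these cells, and the comparison asks whether their identity transcripts stood at the same level with and without the plasmid. The antigens stained in the study for cell sorting included those encoded by Pdgfra and Ly6a, so the mere presence of these transcripts is no finding.

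The targeted gene did not separate the libraries. Tgfbr3 was at 36.87 FPKM (16372 counts) in the TGFBR3-labelled library and at 35.13 FPKM (21245 counts) in the vector-labelled library, a log2 ratio of 0.07 (0.04 to 0.10). The species of the plasmid's insert is not given in the sources used here. Separately, the paper measured TGFBR3 by real-time PCR in FAPs transfected with the plasmid or the vector, a result not set against these libraries here. Every direction below is that of the TGFBR3-labelled library relative to the vector-labelled library. Log2 ratios are those of FPKM + 1, and a gene was counted as 2-fold higher or lower at a log2 ratio of at least 1 or at most -1. Among the 10626 genes at or above 1 FPKM in each library the median log2 ratio was 0.13, so values are also given relative to this median gene (centred).

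The summed markers of most other cell types were low in both libraries. Antibodies to antigens of blood and endothelial cells are among those the paper lists, so low markers of these cells are no finding by themselves. The 11 haematopoietic markers listed summed to 6.65 FPKM in the TGFBR3-labelled library and 4.64 in the vector-labelled library, nearly all of it S100a8 (5.81 and 4.15), while Adgre1, Tyrobp and Fcer1g were at 0 counts in both. The 12 endothelial markers summed to 3.95 and 3.72 FPKM, led by Egfl7 at 1.42 and 1.56, with 5 markers higher, 5 lower and Tie1 and Erg listed at 0 in both. The 9 pericyte and smooth muscle markers summed to 27.0 and 23.8 FPKM, led by Cnn1 at 15.26 and 12.43. The 7 myogenic markers summed to 1.93 and 2.02 FPKM, led by Itga7 at 1.22 and 1.29, and the 5 Schwann cell markers to 2.02 and 3.81, led by S100b at 1.91 and 3.71. The 6 tenocyte markers differed more, with sums of 95.4 and 199 FPKM. Of these 6, 4 were lower, 1 was higher and Kera was at 0 counts in both. Thbs4 stood at 28.55 and 89.98 FPKM (log2 ratio -1.62), Fmod at 63.88 and 104.87 (-0.71) and Scx at 0.74 and 2.04 (-0.80). Mkx, named after its values were seen, was at 2.15 and 1.92 (0.11). Thbs4 and Fmod made up most of the sums. Most tenocyte markers were thus lower in the TGFBR3-labelled library, and their part in the results below was not tested.

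Of the 10 identity genes, 2 were at least 2-fold higher in the TGFBR3-labelled library (Ly6e and Ly6c1) and 0 were at least 2-fold lower. Over all genes listed, 1.41% were 2-fold higher and 0.475% were 2-fold lower. Among the 11213 expressed genes, the shares were 3.14% higher and 1.03% lower. The median log2 ratio of the 10 genes was 0.01, against 0.03 for all genes listed. It was 0.24 with Dpp4 entered by its plain ratio against a floor of 3 counts, which mixes plain and FPKM + 1 ratios. The 8 expressed members had a median of 0.24 against 0.14 for all expressed genes, with 4 of the 8 above the median gene and 4 below it. The identity genes did not differ in a single direction: the Ly6 genes and Osr1 were higher, while the receptors, Cd34 and Thy1 lay below the median gene.

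**Figure D1:**
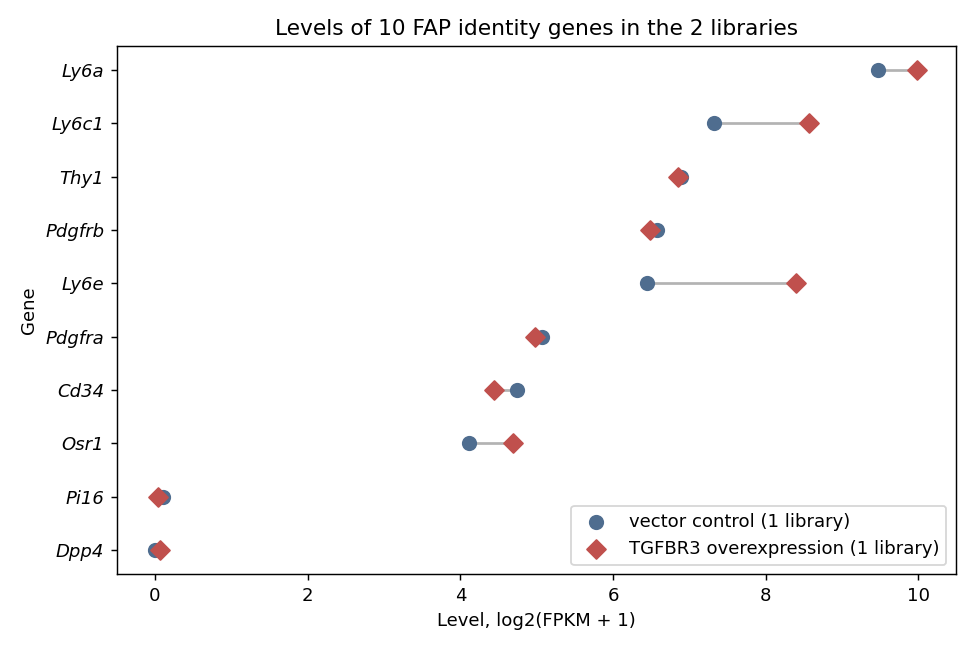
Level of each FAP identity gene as log2(FPKM + 1) on the horizontal axis, with 1 point per library (circles, vector control, and diamonds, TGFBR3 overexpression) and a grey line joining the 2 libraries. The points of Ly6e and Ly6c1 lie farthest apart (85.75 and 334.82 FPKM, and 158.4 and 378.64 FPKM), those of Thy1, Pdgfra and Pdgfrb nearly coincide, and Pi16 and Dpp4 sit at the foot of the scale.

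By FPKM, a scale per length on which genes can be compared, the order in the vector-labelled library was Ly6a, Ly6c1, Thy1, Pdgfrb, Ly6e, Pdgfra, Cd34, Osr1, Pi16 and Dpp4. In the TGFBR3-labelled library Ly6e stood above Thy1 and Pdgfrb, Osr1 above Cd34 and, at 21 and 12 counts, Dpp4 above Pi16. Ly6a was the highest member in both, ranking 19 and 50 among all genes. With 1 library each, no spread between replicates says which neighbours in this order differ.

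Of the Ly6 antigens, Ly6e and Ly6c1 were the members that differed most among those above 1 FPKM. Ly6e (ENSMUSG00000022587, chr15:74955051-74959905 in mm10, plus strand) encodes a broadly expressed GPI-anchored Ly6 protein that interferon induces. It stood at 334.82 FPKM (85956 counts) in the TGFBR3-labelled library and at 85.75 FPKM (29985 counts) in the vector-labelled library. Its log2 ratio was 1.95 (1.93 to 1.97), a plain FPKM ratio of 3.90 (3.85 to 3.96), and 1.83 when centred. Of the 11213 expressed genes, 82 had a higher ratio, and by level Ly6e ranked 120 in the TGFBR3-labelled and 569 in the vector-labelled library.

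Ly6c1 (ENSMUSG00000079018, chr15:75044018-75048830, minus strand) encodes Ly-6C1, an antigen of endothelial and lymphoid cells as well as of mesenchymal progenitors. It was at 378.64 FPKM (43080 counts) in the TGFBR3-labelled library and at 158.4 FPKM (24546 counts) in the vector-labelled library. Its log2 ratio was 1.25 (1.23 to 1.27) and its plain ratio 2.39 (2.35 to 2.43), with 203 expressed genes at a higher ratio. Centred, it remained 2-fold higher at 1.13. Of the 12 endothelial markers, 5 were higher, 5 were lower and 2 were listed at 0 in both, named here after their values were seen. Higher were Kdr at 262 and 65 counts, Vwf at 73 and 41 and Emcn at 27 and 3. Pecam1 at 24 and 8 and Cldn5 at 23 and 0 were also higher. Lower were Cdh5 at 165 and 328 counts, Egfl7 at 353 and 521 and Tek at 333 and 474, with Esam and Robo4 at fewer counts. The 5 higher markers stayed under 0.5 FPKM, and the part of endothelial genes in the Ly6c1 result was not tested.

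Ly6a (ENSMUSG00000075602, chr15:74994877-74998031, minus strand) encodes Sca-1, the antigen by which FAPs are usually sorted. It was at 1012.73 FPKM (82789 counts) in the TGFBR3-labelled library and at 706.37 FPKM (78645 counts) in the vector-labelled library. Its log2 ratio of 0.52 (0.51 to 0.53) did not reach 2-fold, and 1883 of the expressed genes had a higher one. Centred, it was 0.39.

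The 3 Ly6 genes therefore differed from each other in the size of the difference, and as deposited that of Ly6a was close to that of Osr1, described below. With the trend of the log2 ratio over GC content removed, it was 0.32 for Ly6a and 0.67 for Osr1. Within a library, the ratio of Ly6e to Ly6a was 0.331 in the TGFBR3-labelled library and 0.121 in the vector-labelled library, so this ratio was 2.72-fold higher (2.68 to 2.77). The ratio of Ly6c1 to Ly6a was 0.374 and 0.224, which was 1.67-fold higher (1.64 to 1.70). These ratios are taken inside each library and do not depend on how the libraries were scaled. A trend over GC content does not cancel in them, and the intervals do not cover it. With that trend removed, the log2 ratio was 2.00 for Ly6e and 1.12 for Ly6c1, against 0.32 for Ly6a. Summed, the 3 genes made up 0.604% of all FPKM in the TGFBR3-labelled library and 0.316% in the vector-labelled library. Of that sum, Ly6a held 58.7% and 74.3%, Ly6e 19.4% and 9.02%, and Ly6c1 21.9% and 16.7%.

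**Figure D2:**
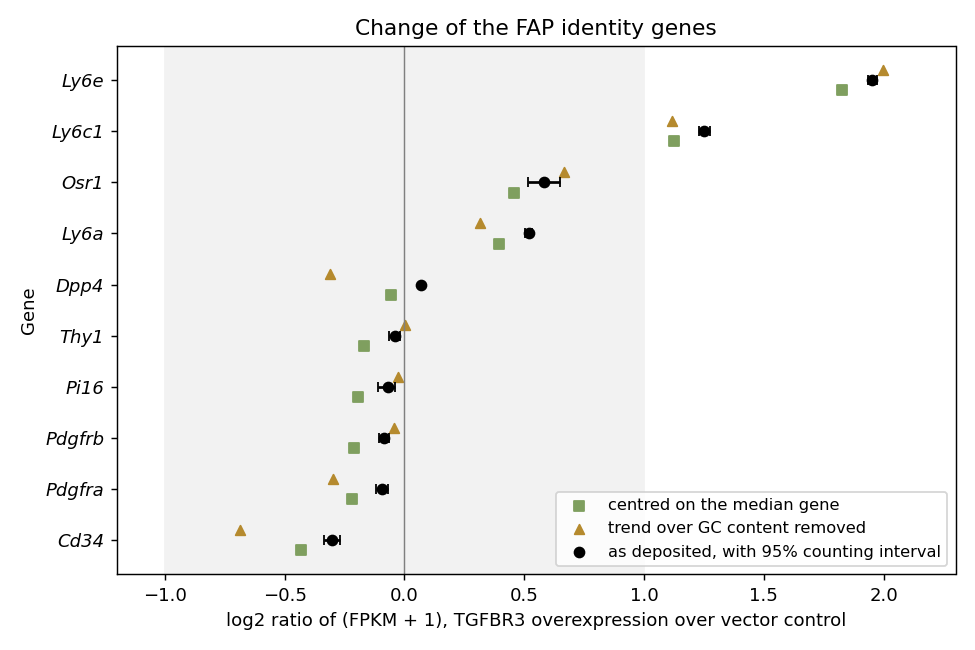
Log2 ratio of (FPKM + 1), TGFBR3 overexpression over vector control, for each FAP identity gene (black points, 1 library per group), with the 95% counting interval except for Dpp4, which had 0 counts in 1 library. Green squares are the same values relative to the median gene and brown triangles those after a trend over GC content was removed, and the shaded band is less than 2-fold. Ly6e and Ly6c1 lie outside the band by all 3 measures and every other member lies inside it.

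Ly6a, Ly6c1 and the neighbouring Ly6c2 are close copies, so a read can fall on more than one of them. Windows of 90 coding bases are shown, read in the coding direction from mm10 with GENCODE M21 gene models, with capitals marking positions at which at least 1 of the 3 genes differs. The window was chosen for the most differences of Ly6c2 and Ly6a from Ly6c1, within 1 exon and without gaps. It therefore does not stand for the whole coding sequence. The windows lie at chr15:75045468-75045557 for Ly6c1, chr15:75108609-75108698 for Ly6c2 and chr15:74995328-74995417 for Ly6a, each within 1 coding exon on the minus strand.
Ly6c1: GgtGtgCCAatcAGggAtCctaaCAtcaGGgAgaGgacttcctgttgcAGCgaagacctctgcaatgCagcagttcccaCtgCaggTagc
Ly6c2: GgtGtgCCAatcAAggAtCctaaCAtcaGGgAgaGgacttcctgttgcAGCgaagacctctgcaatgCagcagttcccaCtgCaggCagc
Ly6a: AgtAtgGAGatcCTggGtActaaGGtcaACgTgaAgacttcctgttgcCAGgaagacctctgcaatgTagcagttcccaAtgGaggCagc
In this window Ly6c2 differed from Ly6c1 at 2 bases and Ly6a at 22. Over 396 aligned coding bases Ly6c1 and Ly6c2 were identical at 97.7%, with a longest identical run of 188 bases, while Ly6c1 and Ly6a were identical at 83.8%, with a longest run of 48. Of all 31-base words in the transcripts, 46.8% of those of Ly6c1 also occurred in another gene (33.0% in Ly6c2), as did 31.9% of those of Ly6a (21.9% in Ly6c1), but only 0.42% of those of Ly6e. How reads that fit several genes were counted is not given in the sources used here, so the values of Ly6c1, Ly6c2 and Ly6a are uncertain to that degree, whereas Ly6e shares almost no sequence.

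The Ly6 genes sit together on chromosome 15. In the 857 kb spanned by Ly6 and uPAR family genes there, 25 genes were listed, of which 10 were above 3 counts in both libraries and 6 were expressed. Of these 6, Ly6c2 was at 6.77 FPKM (1258 counts) and 2.34 (593 counts), a log2 ratio of 1.22 (1.11 to 1.32). Ly6i, a further Ly6 antigen, was at 4.02 FPKM (316 counts) and 1.82 (195 counts), a log2 ratio of 0.83 (0.64 to 1.02). Lynx1, which encodes a modulator of nicotinic receptors, lay near one end of the cluster at 21.24 and 25.24 FPKM, a log2 ratio of -0.24 (-0.28 to -0.20). Between Ly6e and Ly6c2 the expressed genes were thus all higher in the TGFBR3-labelled library, though by different amounts, and Lynx1 was not.

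**Figure D3:**
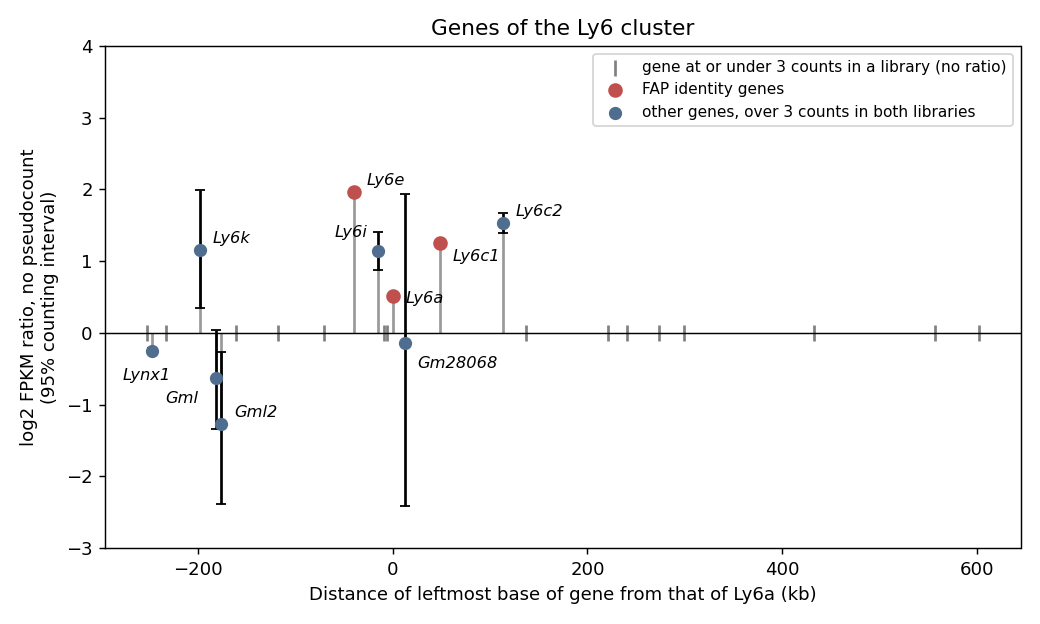
Log2 ratio of plain FPKM (no pseudocount), TGFBR3 overexpression over vector control, for the genes of the Ly6 cluster against the distance of each gene's leftmost base from that of Ly6a in kb, 1 library per group. Bars are 95% counting intervals and ticks on the zero line are genes at or under 3 counts in at least 1 library. Ly6e, Ly6i, Ly6a, Ly6c1 and Ly6c2 lie above the line and Lynx1 below it, and the low genes have wide intervals.

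Across the wider Ly6 and uPAR family, 23 genes beyond the members were listed and 6 were expressed. Of the 23, 1 was 2-fold higher (Ly6c2) and 0 were 2-fold lower, and the median of the 6 was 0.13. Plaur, the urokinase receptor, was at 7.53 and 5.26 FPKM, a log2 ratio of 0.45. The Ly6 proteins and Thy1 hang on the membrane by a GPI anchor, and of 27 genes for anchor synthesis and transfer listed, 0 were 2-fold higher and 1 was 2-fold lower, with a median of 0.05 over 25 expressed. That 1 gene was Dpm3, a subunit that stabilizes dolichol-phosphate mannose synthase, at 6.31 and 15.96 FPKM (-1.21). Its catalytic partner Dpm1 was at 1.66 and 3.35 FPKM (-0.71), and Pigh, a subunit of the enzyme of the first step, at 5.28 and 2.87 (0.70).

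Of 25 genes known to be induced by interferon, 23 were 2-fold higher and 0 were 2-fold lower, with a median log2 ratio of 2.08. Among all expressed genes, 3.14% were 2-fold higher and 1.03% were 2-fold lower. The list was chosen with earlier results of these data known, so its counts are a description only. Cxcl10, a chemokine, was at 48.82 and 1.95 FPKM (4.08), Irf7, a transcription factor of the interferon response, at 278.68 and 20.98 (3.67) and Ifit2, an antiviral effector, at 62.26 and 4.53 (3.52). On the FPKM + 1 scale the ratio of Ly6e was close to the median of that list, that of Ly6c1 lay below it and that of Ly6a lay farther below. The closeness of Ly6e depends on this scale. The added 1 lowered the log2 ratios of low genes, such as Mx1 (2.70 with it and 6.56 without). It hardly moved that of Ly6e (1.95 and 1.97). Whether the Ly6 differences share a source with those of this list was not tested.

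The PDGF receptors, receptor tyrosine kinases for the platelet-derived growth factors, were nearly level. Pdgfra (ENSMUSG00000029231, chr5:75152292-75198215, plus strand), the defining receptor of FAPs, was at 30.48 FPKM (20735 counts) in the TGFBR3-labelled library and at 32.6 FPKM (30196 counts) in the vector-labelled library. Its log2 ratio was -0.09 (-0.12 to -0.07) and -0.22 when centred. Pdgfrb (ENSMUSG00000024620, chromosome 18, positions 61045150 to 61085061), shared with pericytes, was at 88.88 FPKM (33029 counts) and 94.32 FPKM (47740 counts), a log2 ratio of -0.08 (-0.10 to -0.06) and -0.21 centred. Both values were smaller in size than the shift of the median gene. The ratio of Pdgfrb to Pdgfra was 2.92 in the TGFBR3-labelled library and 2.89 in the vector-labelled library, a quotient of 1.01 (0.985 to 1.03) that is within counting error of 1 as deposited, without regard to GC content.

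Set against Pdgfra in the same library, the other members differed. The ratio to Pdgfra was 4.18-fold higher in the TGFBR3-labelled library for Ly6e (4.09 to 4.27), 2.56-fold for Ly6c1 (2.497 to 2.618), 1.64-fold for Osr1 (1.55 to 1.72) and 1.53-fold for Ly6a (1.503 to 1.565). For Thy1 it was 1.04-fold (1.01 to 1.06) and for Cd34 0.859-fold (0.833 to 0.885). By these FPKM ratios Pdgfra, Pdgfrb and Thy1 kept nearly the same proportions. With the trend over GC content removed they did not, since the log2 ratio was then -0.30 for Pdgfra, -0.04 for Pdgfrb and 0.00 for Thy1.

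Of 18 PDGF ligand and receptor-proximal signalling genes listed, 0 were 2-fold higher and 0 were 2-fold lower, with a median log2 ratio of 0.21 over the 17 expressed, 9 of them above the median gene and 8 below. Pdgfrl, a secreted receptor-like protein, was at 5.65 and 9.44 FPKM (-0.65). Cbl, the ubiquitin ligase that turns over activated receptors, was at 4.85 and 2.89 (0.59), and Sos1, the exchange factor that couples receptors to Ras, at 2.36 and 1.25 (0.58).

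**Figure D4:**
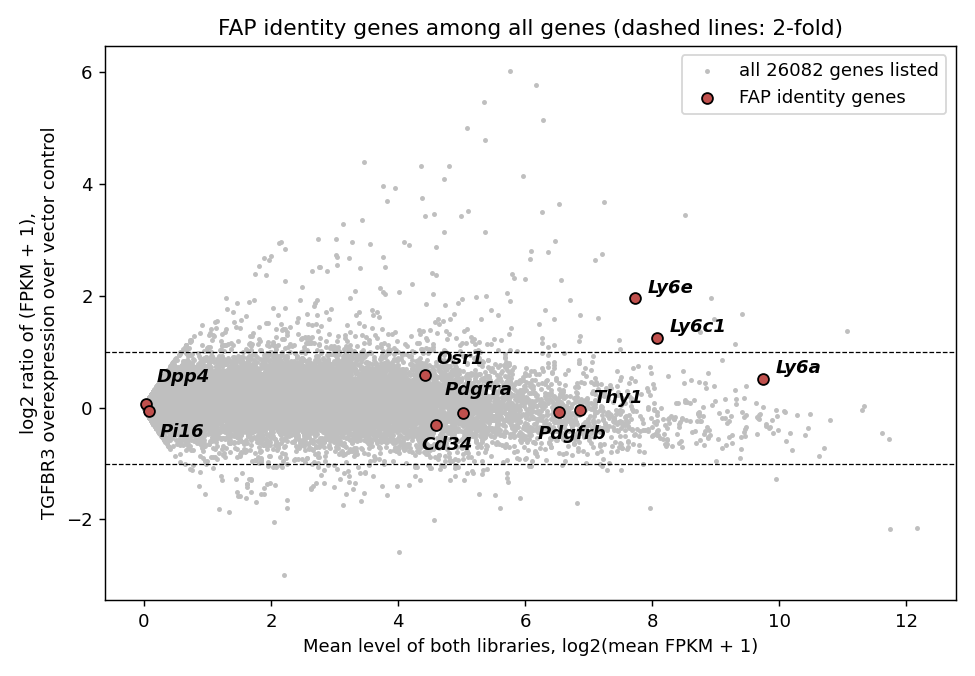
Log2 ratio of (FPKM + 1), TGFBR3 overexpression over vector control, against the mean level of both libraries as log2(mean FPKM + 1), for all 26082 genes listed (grey) and the 10 FAP identity genes (red, named). Dashed lines mark 2-fold, beyond which lie Ly6e and Ly6c1 on the upper side, and Ly6a is the member farthest to the right.

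Of the other surface proteins, Cd34 (ENSMUSG00000016494, chr1:194938819-194961279, plus strand), a sialomucin of stromal, endothelial and blood progenitors, was at 20.62 FPKM (10203 counts) in the TGFBR3-labelled library and at 25.68 FPKM (17298 counts) in the vector-labelled library. Its log2 ratio was -0.30 (-0.34 to -0.27), or -0.43 centred, and 1619 of the 11213 expressed genes had a lower one. Cd34 exons have a GC content of 42.8%, and with the trend of the log2 ratio over GC content removed its value was -0.68. Thy1 (ENSMUSG00000032011, chr9:44043384-44048579, plus strand), a GPI-anchored mesenchymal antigen, was at 114.15 FPKM (23195 counts) and 117.48 FPKM (32510 counts), a log2 ratio of -0.04 (-0.07 to -0.02). The sign of that value turned under a common FPKM sum (0.03) and with the GC trend removed (0.00), so no direction is given for Thy1 beyond its place below the median gene (-0.17 when centred).

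Dpp4 and Pi16, the markers of adventitial progenitors, were nearly undetected. Dpp4 (ENSMUSG00000035000, chr2:62330073-62412231, minus strand), a serine peptidase of the cell surface, had 21 counts (0.05 FPKM) in the TGFBR3-labelled library and 0 counts in the vector-labelled library. Against a floor of 3 counts in that library this is at least 9.53-fold higher if the 21 counts are taken as exact, without counting error. Of 15603 genes with at least 21 counts in the TGFBR3-labelled library, 115 had 0 in the other, and in the reverse direction 81 of 15576. Pi16 (ENSMUSG00000024011, chr17:29317680-29330593, plus strand), a secreted peptidase inhibitor, had 12 counts (0.03 FPKM) and 51 counts (0.08 FPKM), a plain FPKM ratio of 0.320 (0.156 to 0.609). On the FPKM + 1 scale their log2 ratios were 0.07 for Dpp4 and -0.07 for Pi16. The label of the cells as FAPs comes from the cell sorting and the sample labels. Of the identity genes, the other 8 were expressed in these libraries, and the 2 adventitial markers contribute next to nothing. An annotated antisense gene overlaps 3.67% of the exon length of Dpp4, 3.49% of that of Pi16, 4.55% of that of Pdgfra and 2.03% of that of Cd34, and at so few counts this bears most on Dpp4 and Pi16, since the strand setting of the counting is not given in the sources used here.

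Other markers of adventitial fibroblasts were better expressed. Of 16 listed beyond the members, 0 were 2-fold higher and 3 were 2-fold lower, and all 11 expressed ones lay below the median gene, with a median log2 ratio of -0.54. Clec3b, the plasminogen-binding protein tetranectin, was at 0.40 FPKM (27 counts) in the TGFBR3-labelled library and at 3.20 FPKM (294 counts) in the vector-labelled library, a log2 ratio of -1.58. Fbn1, which encodes the microfibril protein fibrillin-1, was at 61.76 and 127.51 FPKM (-1.03), and Ace, the angiotensin-converting enzyme, at 12.52 and 22.58 (-0.80). Wnt2, the third gene past 2-fold, was at 0.05 and 1.24 FPKM (-1.09) and is named here after its values were seen. In bulk RNA, fewer cells of a type and less RNA per cell cannot be told apart. The tenocyte genes Thbs4, Fmod and Scx were lower in the same library, while Mkx was slightly higher.

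Markers of parenchymal fibroblasts, the other FAP state, went both ways. Of 13 listed, 1 was 2-fold higher and 1 was 2-fold lower, with a median of -0.04 over 10 expressed. Apod, a lipocalin that binds lipids, was at 56.93 FPKM (9955 counts) and 4.41 FPKM (1053 counts), a log2 ratio of 3.42. Cxcl14, a chemokine, was at 20.75 and 74.2 FPKM (-1.79), and Penk, the enkephalin precursor, at 13.17 and 6.15 (0.99). Of 18 other mesenchymal surface antigens, 1 was 2-fold higher and 0 were 2-fold lower, with a median of 0.13 over 13 expressed. The 1 was Bst1, an ectoenzyme of NAD metabolism, at 2.56 and 0.34 FPKM (1.41). Itga11, a collagen-binding integrin chain, was at 16.11 and 31.32 FPKM (-0.92), and Cd248, the stromal antigen endosialin that is also on the adventitial list, at 128.1 and 219.52 (-0.77).

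Osr1 (ENSMUSG00000048387, chr12:9570116-9581500, plus strand), a zinc finger transcription factor that marks FAPs in development and after injury, was the only lineage factor among the members. It was at 24.83 FPKM (3481 counts) in the TGFBR3-labelled library and at 16.23 FPKM (3099 counts) in the vector-labelled library. Its log2 ratio was 0.58 (0.52 to 0.65), a plain ratio of 1.53 (1.46 to 1.61), and 0.46 when centred, and 1491 expressed genes had a higher one. Of 17 other transcription factors of stromal progenitors listed, 0 were 2-fold higher and 0 were 2-fold lower, and the median of the 11 expressed was 0.37, with 7 above the median gene and 4 below. Twist2 was at 32.82 and 17.78 FPKM (0.85) and Prrx1 at 15.69 and 9.52 (0.67), whereas the related Prrx2 was at 16.13 and 26.0 (-0.66). Tcf21, a factor of other fibroblast lineages, was at 0 counts in both libraries.

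Since both groups were in adipogenic medium, genes of adipogenic commitment and of adipocytes are given beside the progenitor genes. Of 21 listed, 0 were 2-fold higher and 2 were 2-fold lower, with a median log2 ratio of -0.15 over 15 expressed, 3 of them above the median gene and 12 below. Cfd, the adipokine adipsin, was at 15.33 and 39.04 FPKM (-1.29), and Adipoq, the hormone adiponectin, at 5.69 and 13.01 (-1.07). Cebpd, an early transcription factor of adipogenesis, was at 50.72 and 92.82 (-0.86). The 3 above the median gene, named after their values were seen, were Pparg, Icam1 and Lpl. They stood at 2.19 and 1.61 FPKM (0.29), 17.32 and 13.85 (0.30), and 10.02 and 8.86 (0.16). Dlk1, also named afterwards, was at 1.10 and 2.27 (-0.64). The list mixes genes of different roles, so its counts do not measure adipogenesis as such.

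**Figure D5:**
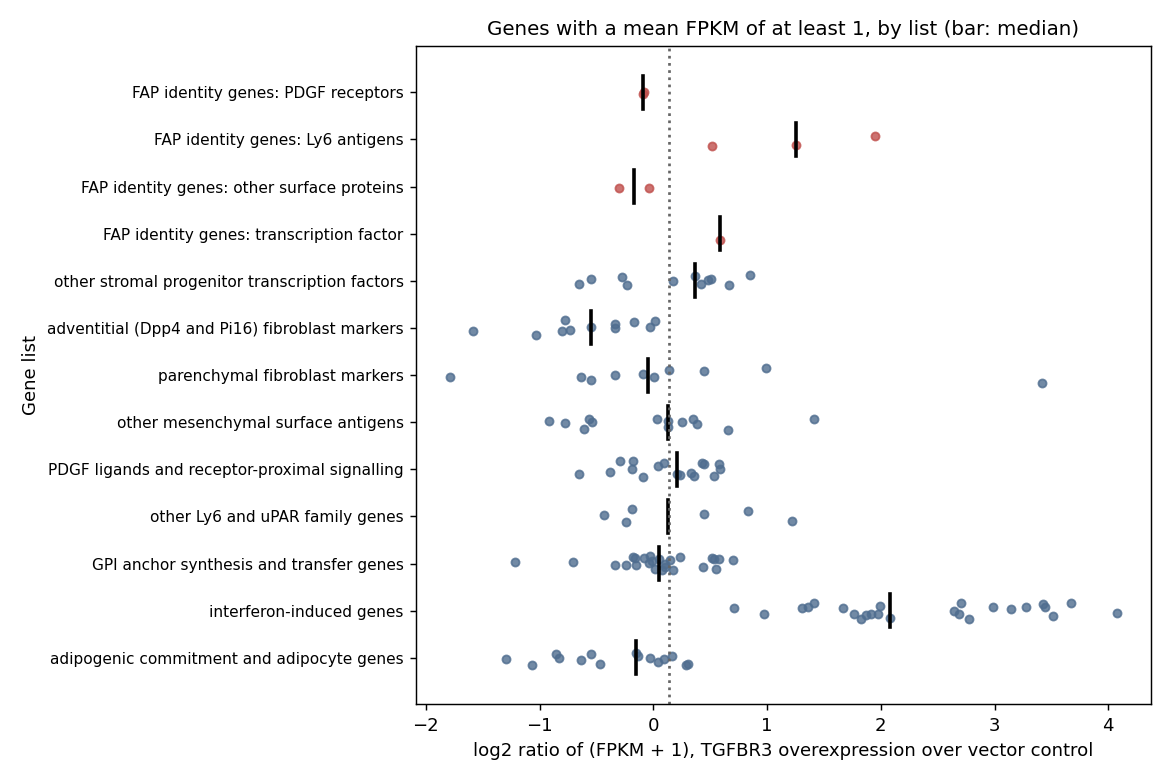
Log2 ratio of (FPKM + 1), TGFBR3 overexpression over vector control, for expressed genes, by list, with 1 point per gene, the FAP identity genes in red by role, a black bar at the median of each list and a dotted line at the median of all such genes (0.14). The median of the Ly6 antigens (1.25) lies below that of the interferon-induced genes (2.08), with Ly6e and Ly6c1 inside the range of that list and Ly6a beside Osr1, and the adventitial markers (median -0.54) lie to the left of the dotted line.

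Genes nearest to a member in level over the 2 libraries were found by the Euclidean distance of log2(FPKM + 1). Nearest to Ly6e were Lgals9, a galectin, at a distance of 0.53, and Plin2, a lipid droplet protein, at 0.63. Ly6a lay nearest to Pgk1 (0.33) and Ifitm3 (0.34), and Ly6c1 to Grn (0.37) and Gm10123 (0.44). Pdgfra lay within 0.02 of Sf3b2 and Mea1, Pdgfrb within 0.04 of Myl9 and Rcn1, and Thy1 within 0.04 of Myo1c and Myadm. Cd34 lay 0.01 from both Usf2-ps1 and Cacnb3 after rounding, and Osr1 within 0.03 of Gask1b and Twsg1. The Ly6 genes thus lay farther from their nearest genes than the other expressed members. They also ranked high by level, where fewer genes lie, and the distances were not adjusted for this. The ranks in the TGFBR3-labelled and vector-labelled libraries were 19 and 50 for Ly6a, 107 and 301 for Ly6c1 and 120 and 569 for Ly6e. With 2 libraries such likeness says nothing of shared regulation.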

How the data were processed

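RNA of 2 samples was sequenced as paired reads of 150 nt from a poly(A)-selected, strand-marked library. The authors' paper names STAR and FeatureCounts with mm10, while the submitters' processing notes name cutadapt 1.9, HISAT2 2.2.1 and StringTie 2.1.6. Which made the tables is not given in the sources used here. The authors deposited raw counts per gene and FPKM values rounded to 2 decimals. FPKM matched the count divided by exon length and 1 library total within a tolerance of 0.01 of the value for 98.7% of 6769 and 98.8% of 6198 genes with an FPKM of at least 5. These totals were 67844582 and 92399193.

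Ratios of FPKM + 1 were computed with Python 3.11.15, pandas 2.3.3 and SciPy 1.17.1, with Clopper-Pearson intervals of counts at 95%, and for quotients of 2 genes a normal approximation on the log scale. The calculation was tested on simulated data. No count model was run, because each group held 1 library, and precision was set by depth and covers counting error only. Coordinates and sequences are from mm10 with GENCODE M21, which held 99.7% of gene IDs. The members and the gene lists were chosen with earlier results of these data known. Named genes were the members, Tgfbr3, up to 3 genes per list with the largest absolute log2 ratio at a mean FPKM of at least 1, the highest gene of each marker list and the 2 genes nearest to each member. Of the nearest genes, those of Dpp4 and Pi16 are left out, since many genes tie at their levels. Pseudocount, scaling, filter and fold threshold were varied.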

Additional observations from a re-analysis of the deposited data

How the results depend on the processing

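Ly6e (1.83 to 2.02) and Ly6c1 (1.12 to 1.32) stayed past a log2 ratio of 1 under all 9 alternatives of pseudocount, scaling and trend that gave them a value, and Ly6a (0.32 to 0.59), Osr1 (0.46 to 0.67), Cd34 (-0.68 to -0.23), Pdgfra (-0.35 to -0.02) and Pdgfrb (-0.27 to -0.01) kept their sign. Thy1 (-0.17 to 0.03) turned in 2 of 9. Dpp4 (-0.31 to 2.58) turned in 3 of 8, and Pi16 (-1.64 to -0.03) depended on the pseudocount, both by construction at so few counts. Removal of trends over GC content and exon length was chosen after seeing the data. The number of members 2-fold lower was 1 (Pi16) with a pseudocount of 0.01 and with plain ratios above the floor, and at 4-fold 0 members were higher. With a pseudocount of 0.01, 3 members were 2-fold higher, Dpp4 (2.58) being added.

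Against 369 genes 2-fold higher, the count was 2061 with a pseudocount of 0.1, 4933 with 0.01, 2407 with plain ratios above the floor, 638 with CPM, 1685 at 1.5-fold, 77 at 4-fold and 237 without the GC trend. Against 124 lower, it was 798, 2750, 759 and 197 for the first 4 of these, 608 at 1.5-fold, 6 at 4-fold and 195 when centred. The members' median of 0.01 became 0.24 with a pseudocount of 0.1, 0.24 with 0.01, 0.24 at a mean FPKM of at least 1, -0.041 with plain ratios, -0.11 when centred, 0.051 with a common FPKM sum, 0.18 with CPM, -0.012 without the GC trend and -0.13 without the length trend. The median log2 ratio of the expressed genes fell from 0.42 in the lowest to -0.26 in the highest GC bin.

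With 1 library per group, none was left out in turn and no spread was estimated. No paired analysis was possible because the result comes from no test and each group has 1 library.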

Other observations

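Fap, which encodes fibroblast activation protein, the closest relative of Dpp4, was the next listed gene beyond Dpp4 on chromosome 2 (62500943 to 62574075 in mm10) and had the same pattern of counts. It stood at 25 counts in the TGFBR3-labelled library and 0 in the vector-labelled library. Ifih1, an antiviral RNA sensor and the next listed gene after Fap, was at 10.85 FPKM (6011 counts) and 2.49 FPKM (1877 counts), a log2 ratio of 1.76. These 2 genes were chosen after their values were seen, and Dpp4 and Fap stayed under 0.1 FPKM, so their values are given as a description of 1 library each.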
